A study of Mus musculus with 11 samples.

Results

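The genes described here are 7 genes of estrogen and progesterone sensing in the mouse mammary gland, out of 27179 genes with counts. They are *Esr1*, *Pgr*, *Cited1*, *Greb1*, *Tnfsf11*, *Calca* and *Tnfrsf11a*, and were chosen with earlier results of these data known. All 7 passed the filter on low counts. Their expression was measured by RNA-seq in 11 libraries. Freshly sorted wild-type cells came from virgin FVB/N mice, labelled 8 weeks old, as 3 libraries each of basal cells enriched for stem cells (MaSC/basal, CD24+CD29hi), luminal progenitor-enriched cells (LP, CD24+CD29loCD61+) and mature luminal cell-enriched cells (ML, CD24+CD29loCD61-). Single libraries came from mammospheres, which are non-adherent spheres grown from MaSC/basal cells, and from Comma Dβ, an immortal mouse mammary line of Balb/c mid-pregnancy origin that carries a β-geo reporter. The stage of the estrous cycle of the mice is not given in the sources used here. Levels are given as CPM, reads on a gene relative to all counted reads of the library, scaled by TMM factors that adjust for library composition.

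Estrogen and progesterone act on the mammary epithelium through the nuclear receptors encoded by *Esr1* and *Pgr*. In the gland these receptors are found mainly in a subset of luminal cells, which are thought to pass the signal to receptor-negative neighbours through secreted factors such as amphiregulin, Wnt4 and RANK ligand. RANK ligand (*Tnfsf11*) binds RANK (*Tnfrsf11a*) on the receiving cells and activates NF-κB. *Cited1* encodes a transcriptional co-regulator that binds the estrogen receptor, *Greb1* and *Calca* are known respectively as an estrogen-induced and a progesterone-induced gene, and *Calca* encodes calcitonin and the neuropeptide CGRP.

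*Esr1*, *Pgr* and *Cited1* rose stepwise, from MaSC/basal to LP to ML cells, and each step passed the test. *Tnfsf11* and *Calca* were also higher in ML than in MaSC/basal cells, and *Greb1* was lowest in LP cells. These calls of *Tnfsf11* and *Calca*, and that of *Greb1* between LP and ML cells, were lost in some of the alternative settings given below. *Tnfrsf11a* was lowest in ML cells, 5.37-fold lower than in LP cells, and did not differ past the threshold between MaSC/basal and LP cells. Of the 7 genes, 4 were called between MaSC/basal and LP cells at an adjusted p under 0.05, where 57.4% of all 15422 tested genes were called. 3 were higher in LP cells (28.0% of all genes) and 1 was higher in MaSC/basal cells (29.4%). Comparing ML with MaSC/basal cells, 6 were called against 58.7% of all genes, 5 of them higher in ML (29.7%) and 1 higher in MaSC/basal cells (28.9%). Between LP and ML cells 6 were called against 31.8% of all genes, 5 of them higher in ML (17.5%) and 1 higher in LP cells (14.3%). The single libraries did not overlap between MaSC/basal and LP cells for 4 of the 7 genes (63.9% of all genes), between MaSC/basal and ML cells for 5 (65.5%) and between LP and ML cells for 6 (47.9%). The 3 comparisons share libraries and are not independent of each other.

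**Figure D1:**
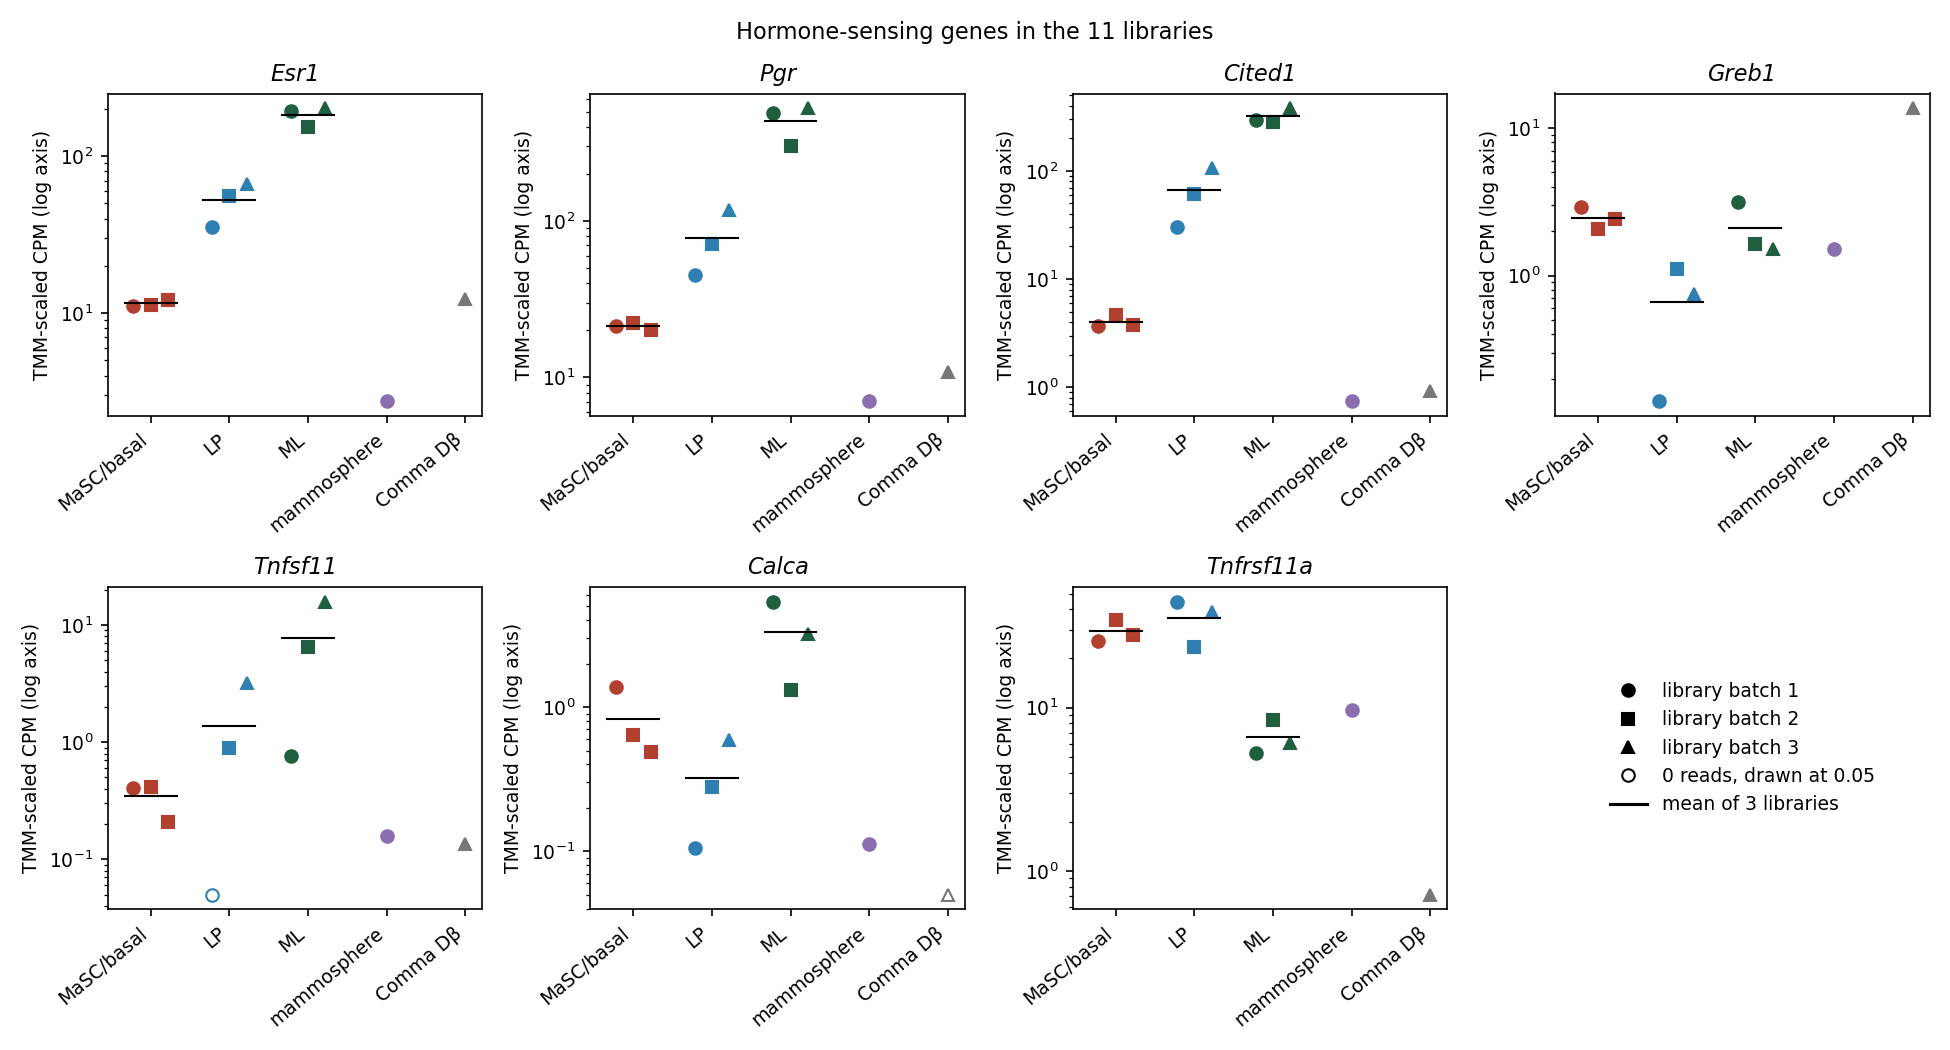
TMM-scaled CPM (log axis, its range set for each gene) of the 7 genes in each of the 11 libraries, with marker shape for the library batch and a line at the mean of 3 libraries. *Esr1*, *Pgr* and *Cited1* climb from MaSC/basal to LP to ML cells without overlap, *Tnfrsf11a* is lowest among the sorted cells in ML, and *Tnfsf11* is spread most widely.

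The populations carried the markers of their labels. The summed CPM of 6 basal markers was 15516 to 21725 in MaSC/basal cells and at most 358 in LP and ML cells. The sum of 5 mature luminal markers was 4423 to 6916 in ML and 759 to 1909 in LP cells, and that of 5 luminal progenitor markers was 447 to 1273 in ML and 2149 to 2646 in LP libraries. Fibroblast marker sums overlapped between LP and ML cells (189 to 776 and 354 to 645 CPM), whereas the sum of 4 erythroid markers was higher in ML (6.53 to 12.99 CPM) than in LP cells (1.52 to 4.06) and that of 8 immune markers higher in LP (15.1 to 23.9) than in ML cells (7.30 to 11.5). Endothelial and adipocyte marker sums were higher in MaSC/basal cells (43.2 to 89.4 and 30.2 to 68.7 CPM) than in LP (10.5 to 25.7 and 4.62 to 16.6) and overlapped the ML range only for adipocyte markers (3.08 to 36.2, endothelial 7.27 to 37.4). The part of these markers in the results was not tested. Total counts were 19958838 to 75795034 per library, lowest in batch 3 of the 3 library batches named in the labels. Batch 1 comprised replicate 1 of each sorted population and the mammosphere library, batch 2 MaSC/basal replicates 2 and 3 with LP and ML replicate 2, and batch 3 LP and ML replicate 3 with Comma Dβ. The submitted name of MaSC/basal replicate 1 contains p53, although its label is wild type, and the name of the mammosphere sample leaves unclear whether it pools cultures. The labels do not say whether replicates came from separate mice, so p-values measure the spread between these libraries. In such bulk samples, fewer cells of a type and less RNA per cell cannot be told apart.

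The bases before annotated start sites of the 7 genes were searched for short hormone receptor motifs. In RefSeq (GRCm38.p6), the 7 genes had 11 start sites, and the 250 bases before each were read on both strands. The full estrogen response element, searched as GGTCA and TGACC 3 bases apart, was found in none of the 11 windows and in 0.0639% of all 32851 windows. Among the 11 windows, the half-site AGGTCA was found in 1 each of *Greb1*, *Cited1* and *Calca*, which have 2, 3 and 1 windows. The share over all windows, 14%, is per window and not per gene. The half-site can also form part of the full element when an A precedes the GGTCA. Neither the progesterone receptor half-site TGTTCT (16.1% of all windows) nor the forkhead motif TGTTTAC (3.17%) was found in the 11 windows. The windows printed here have no annotated GENCODE exon, and those of *Greb1*, *Calca* and *Pgr* lie inside the gene spans given below. Those of *Greb1* and *Calca* have the half-site, with its outer end 88 and 130 bases before the start and set in capitals as its reverse complement, and those of *Pgr* and *Cited1*, the genes with the highest ML levels, have no match.
Greb1, chr12:16800887-16801136, minus strand: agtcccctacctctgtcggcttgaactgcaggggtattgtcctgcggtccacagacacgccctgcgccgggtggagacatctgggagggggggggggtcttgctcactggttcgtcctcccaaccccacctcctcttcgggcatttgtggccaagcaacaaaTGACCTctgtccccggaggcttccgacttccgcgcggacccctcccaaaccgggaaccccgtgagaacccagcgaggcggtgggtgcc
Calca, chr7:114636358-114636607, minus strand: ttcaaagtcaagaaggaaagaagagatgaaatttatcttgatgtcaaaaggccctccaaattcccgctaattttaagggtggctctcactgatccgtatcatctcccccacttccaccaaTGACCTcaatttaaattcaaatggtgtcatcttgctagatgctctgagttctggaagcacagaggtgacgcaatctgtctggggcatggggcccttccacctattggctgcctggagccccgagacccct
Pgr, chr9:8899583-8899832, plus strand: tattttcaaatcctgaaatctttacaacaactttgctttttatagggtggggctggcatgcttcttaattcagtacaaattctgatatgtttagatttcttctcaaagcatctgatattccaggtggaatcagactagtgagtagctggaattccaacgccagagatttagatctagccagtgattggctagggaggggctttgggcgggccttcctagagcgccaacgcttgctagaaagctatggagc
Cited1, chrX:102252182-102252431, minus strand: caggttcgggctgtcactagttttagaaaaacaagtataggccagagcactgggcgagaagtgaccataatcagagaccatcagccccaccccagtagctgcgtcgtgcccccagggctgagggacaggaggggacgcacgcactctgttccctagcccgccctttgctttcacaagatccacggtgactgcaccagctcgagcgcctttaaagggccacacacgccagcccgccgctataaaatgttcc
The matches are letters only, and binding was not measured in these libraries. The windows of *Tnfsf11* and *Tnfrsf11a* had no match either, whereas another start site of *Cited1* had the half-site.

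*Esr1*, which encodes estrogen receptor α (chromosome 10, 4611989 to 5005633), was expressed in all 11 libraries. Its level was 11.2, 11.3 and 12.1 CPM in MaSC/basal replicates 1, 2 and 3, 35.2, 55.8 and 66.8 in the LP replicates and 194, 153 and 203 in the ML replicates. The 3 populations did not overlap, and the MaSC/basal libraries lay closest together. The step from MaSC/basal to LP cells was 4.55-fold (log2 2.18 ± 0.22 SE, adjusted p = 1.93e-05, edgeR's quasi-likelihood test with Benjamini-Hochberg adjustment, as for all adjusted p-values here). The step from LP to ML cells was 3.49-fold (log2 1.80 ± 0.22, adjusted p = 0.000849), and ML exceeded MaSC/basal cells 15.9-fold (log2 3.99 ± 0.24, adjusted p = 6.05e-07). Within batches 1, 2 and 3 the ML libraries exceeded the LP library by 2.46, 1.46 and 1.60 on the log2 scale.

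*Pgr*, the progesterone receptor gene and itself a target of estrogen (chromosome 9, 8898900 to 8968611), had the same order of populations. It measured 21.4, 22.4 and 20.05 CPM in the MaSC/basal replicates, 45.0, 71.2 and 118 in LP and 489, 299.8 and 526 in ML cells. The groups did not overlap, and LP replicate 3 was the highest of the LP libraries. *Pgr* was 3.67-fold higher in LP than in MaSC/basal cells (log2 1.88 ± 0.33, adjusted p = 0.000732) and 5.61-fold higher in ML than in LP cells (log2 2.49 ± 0.33, adjusted p = 0.00108). Between ML and MaSC/basal cells the fold was 20.6 (log2 4.36 ± 0.36, adjusted p = 4.60e-06). The difference of ML from LP was 3.44, 2.07 and 2.15 on the log2 scale within batches 1, 2 and 3. Per length, the ratio of *Pgr* to *Esr1* RPKM was 1.48 ± 0.219 in ML cells, 0.904 ± 0.179 in LP and 1.16 ± 0.107 in MaSC/basal cells (SD, n = 3), and the ML libraries, at 1.23 to 1.63, all lay above the LP libraries, at 0.801 to 1.11.

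*Cited1* (chromosome X, 102247378 to 102252181) had the largest span of the 7 genes across the sorted populations. Its level was 3.70, 4.63 and 3.73 CPM in MaSC/basal, 30.5, 60.7 and 106 in LP and 297, 283 and 380 in ML cells. No library of one population overlapped another. LP cells exceeded MaSC/basal cells 16.4-fold (log2 4.03 ± 0.40, adjusted p = 1.72e-05), ML exceeded LP cells 4.87-fold (log2 2.28 ± 0.37, adjusted p = 0.00199), and ML exceeded MaSC/basal cells 79.6-fold (log2 6.32 ± 0.44, adjusted p = 1.62e-06). Within batches the difference of ML from LP was 3.28, 2.22 and 1.84, so that its direction was the same in each.

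Within the LP and ML groups the libraries kept a common order for these genes. LP replicate 1 was lowest and LP replicate 3 highest for *Esr1*, *Pgr* and *Cited1*, and the summed mature luminal markers rose alike in the 3 libraries at 759, 1253 and 1909 CPM. ML replicate 2 was the lowest ML library for the same 3 genes, and it had the lowest sum of mature luminal markers (4423 CPM), the highest sum of luminal progenitor markers (1273 CPM) and the highest level of *Itgb3* (34.0 CPM, against 8.68 and 4.51), which encodes CD61, the antigen gated against in ML cells. The part of these marker differences in the levels of the 7 genes was not tested. *Itgb3* is itself among the summed luminal progenitor markers, so its level and that sum are not separate observations. *Elf5*, another of these markers, is also counted among the pathway genes below, as are *Prlr* and *Foxa1* of the mature luminal markers. *Prlr* alone gave 486, 845 and 1255 CPM of the sums in LP replicates 1, 2 and 3, and 2848 CPM of that in ML replicate 2. The order of the mature luminal sums is therefore largely that of a hormone receptor gene and is not independent of the pathway described.

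*Greb1* (chromosome 12, 16670615 to 16801394), although a well-known estrogen target in other tissues, did not follow *Esr1*. It was low throughout, at 2.92, 2.05 and 2.43 CPM in MaSC/basal, 0.141, 1.10 and 0.748 in LP and 3.14, 1.64 and 1.504 in ML cells. LP libraries lay below all MaSC/basal and ML libraries, and MaSC/basal and ML libraries overlapped. *Greb1* was 3.58-fold lower in LP than in MaSC/basal cells (log2 -1.84 ± 0.54, adjusted p = 0.0149), and by log2 -2.55 without LP replicate 2 (adjusted p = 0.00768). From MaSC/basal to ML cells it did not pass the test (log2 -0.24 ± 0.50, adjusted p = 0.707). ML exceeded LP cells 3.04-fold at the edge of the threshold (log2 1.60 ± 0.55, adjusted p = 0.0483), and with library batch as a block the call was lost (log2 1.57, adjusted p = 0.0718). It was also lost without LP replicate 1 (log2 1.12, adjusted p = 0.0763), without ML replicate 1 (log2 1.19, adjusted p = 0.171) and when any one of MaSC/basal replicates 1 to 3, ML replicate 3 or LP replicate 3 was left out (adjusted p of 0.0556 to 0.0914), and was kept at log2 2.31 without LP replicate 2 (adjusted p = 0.0304). Within batches 1, 2 and 3 ML exceeded LP by 4.08, 0.55 and 0.96 on the log2 scale, with the largest value in batch 1, where the LP library had 4 reads.

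*Tnfsf11*, encoding RANK ligand (chromosome 14, 78277446 to 78308043), was low and spread widely within populations. Its level was 0.407, 0.419 and 0.207 CPM in MaSC/basal cells, and 0.764, 6.55 and 15.9 in ML cells. In LP cells it had 0 reads in replicate 1, which allows up to 0.106 CPM, and 0.899 and 3.20 CPM in replicates 2 and 3. All ML libraries lay above all MaSC/basal libraries, whereas ML replicate 1 lay below LP replicates 2 and 3. *Tnfsf11* was 22.05-fold higher in ML than in MaSC/basal cells (log2 4.46 ± 1.27, adjusted p = 0.0120). Within batches the difference was 0.84 in batch 1 and 4.26 in batch 2 on the log2 scale, without ML replicate 3 it was 3.42 (adjusted p = 0.0366), with library batch as a block 3.00 (adjusted p = 0.0135), and with limma voom the call was lost (log2 3.64, adjusted p = 0.0574). Between LP and ML cells the difference did not pass the test (log2 2.57 ± 1.17, adjusted p = 0.120) but did so with library batch as a block (log2 2.65, adjusted p = 0.0258). It was 1.52 without ML replicate 3 (adjusted p = 0.364), 1.93 without LP replicate 1 (adjusted p = 0.199) and 3.93 without LP replicate 3 (adjusted p = 0.0564). ML exceeded LP in each batch, by 2.80 in batch 2 and 2.29 in batch 3, and against 0 reads in batch 1. The difference between LP and MaSC/basal cells, log2 1.90 ± 1.25, was not called (adjusted p = 0.218) and came to 0.53 without LP replicate 3, 2.52 without LP replicate 1, 0.35 with the batch block and 0.11 with limma voom, with no call in any of these.

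*Calca* (chromosome 7, 114625981 to 114636910) was low in MaSC/basal and LP cells, with at most 15 reads in an LP library, and had 71 to 191 reads in the ML libraries. The counts do not separate the calcitonin and CGRP transcripts of the gene. It had 1.37, 0.638 and 0.490 CPM in MaSC/basal, 0.106, 0.281 and 0.587 in LP and 5.40, 1.32 and 3.24 in ML cells, and the lowest LP value stood for 3 reads. Every ML library lay above every LP library, but ML replicate 2 lay just below MaSC/basal replicate 1. ML exceeded LP cells 10.8-fold (log2 3.43 ± 0.71, adjusted p = 0.00595), with differences of 5.16, 2.06 and 2.37 in batches 1, 2 and 3, the first against the 3 LP reads, and the value was 2.85 without ML replicate 1 (adjusted p = 0.0213) and 3.01 without LP replicate 1 (adjusted p = 0.0245). ML exceeded MaSC/basal cells 3.92-fold (log2 1.97 ± 0.62, adjusted p = 0.0188), a call that was lost without ML replicate 1 (log2 1.40, adjusted p = 0.0861), MaSC/basal replicate 2 (log2 1.79, adjusted p = 0.0708) or MaSC/basal replicate 3 (log2 1.69, adjusted p = 0.0733). The lower level in LP than in MaSC/basal cells was not called (log2 -1.46 ± 0.70, adjusted p = 0.101) but passed with library batch as a block (log2 -1.62, adjusted p = 0.0466).

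*Tnfrsf11a*, encoding RANK, the receptor for RANK ligand (chromosome 1, 105780673 to 105849444), was the only one of the 7 genes lower in ML than in LP cells. It measured 25.5, 34.5 and 27.9 CPM in MaSC/basal, 44.6, 23.6 and 38.7 in LP and 5.26, 8.37 and 6.11 in ML cells. MaSC/basal and LP libraries overlapped, and ML libraries lay below both. It was 4.43-fold lower in ML than in MaSC/basal cells (log2 -2.15 ± 0.27, adjusted p = 7.04e-05) and 5.37-fold lower than in LP cells (log2 -2.43 ± 0.27, adjusted p = 0.000800). Between MaSC/basal and LP cells the difference of log2 0.28 ± 0.25 was not called (adjusted p = 0.370). The decrease from LP to ML was -3.07, -1.49 and -2.66 within batches 1, 2 and 3, smallest in batch 2, which held the LP library with the lowest level and the ML library with the highest. Among ML libraries the receptor was highest in replicate 2, which was the lowest for *Esr1*, *Pgr* and *Cited1*.

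**Figure D2:**
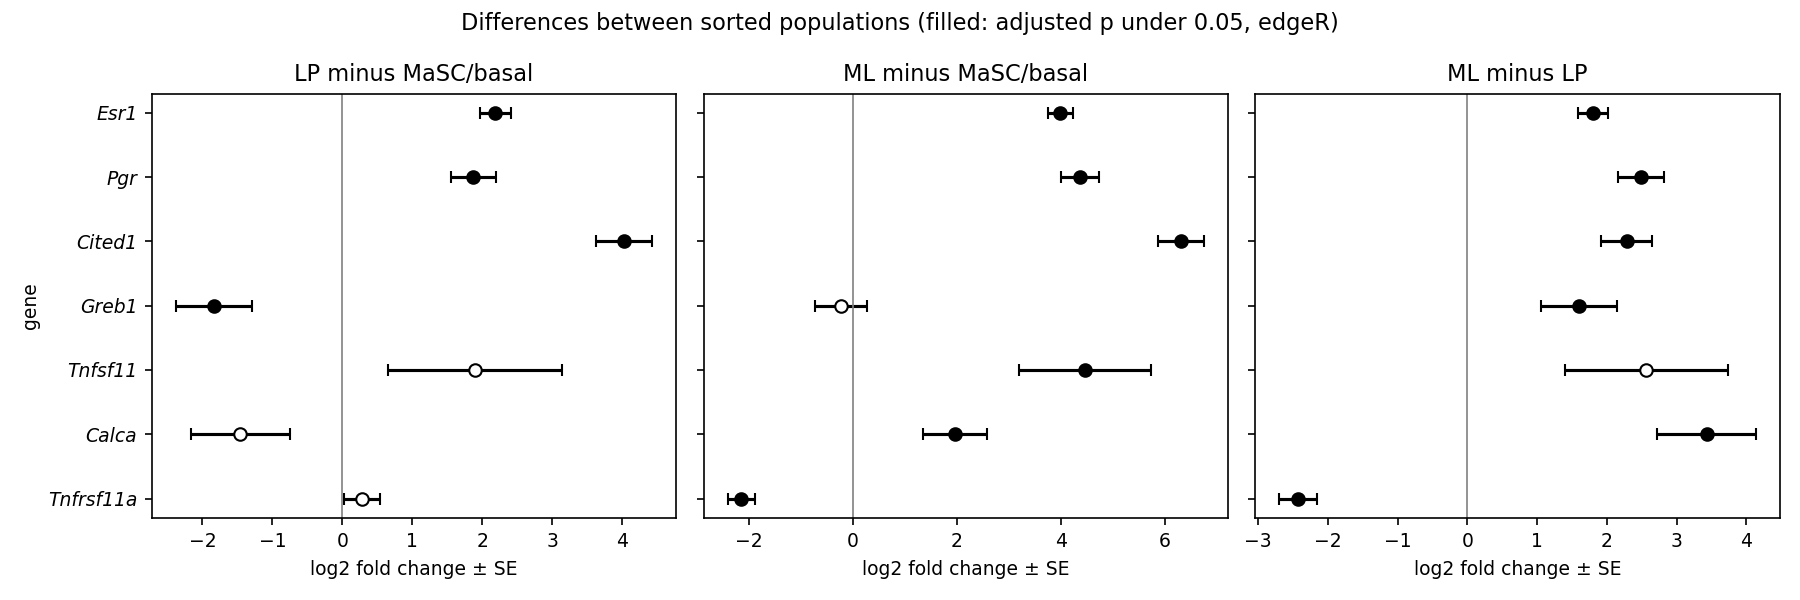
Log2 fold change ± SE of the 7 genes for LP minus MaSC/basal, ML minus MaSC/basal and ML minus LP (edgeR, 3 libraries per population), filled where the adjusted p was under 0.05. *Cited1* has the largest differences from MaSC/basal cells, *Tnfrsf11a* is negative in both comparisons of ML, and *Tnfsf11* has the widest errors.

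Levels of different genes were compared per length, as RPKM over the exon length in the files. In ML cells the order was *Cited1* (328 ± 53.7 RPKM, SD, n = 3), *Pgr* (63.6 ± 17.6), *Esr1* (42.5 ± 6.11), *Tnfsf11* (3.46 ± 3.41), *Calca* (2.23 ± 1.37), *Tnfrsf11a* (1.31 ± 0.320) and *Greb1* (0.253 ± 0.110). The libraries of *Pgr* and *Esr1* overlapped, as did those of *Tnfsf11* with *Calca* and of *Calca* with *Tnfrsf11a*. *Cited1* lay at percentile 99.1 of the tested genes in ML cells, *Pgr* at 92.7 and *Esr1* at 88.7, whereas *Greb1* lay at 9.57. In LP cells the order was *Cited1* (67.5 ± 39.1), *Esr1* (12.2 ± 3.71), *Pgr* (11.3 ± 5.39), *Tnfrsf11a* (7.09 ± 2.16), *Tnfsf11* (0.612 ± 0.740), *Calca* (0.218 ± 0.164) and *Greb1* (0.0804 ± 0.0590), with overlap between all neighbours except *Cited1* with *Esr1* and *Tnfrsf11a* with *Tnfsf11*. In MaSC/basal cells the receptor *Tnfrsf11a* came first (5.84 ± 0.932), followed by *Cited1* (4.12 ± 0.539), *Pgr* (3.09 ± 0.169), *Esr1* (2.67 ± 0.118), *Calca* (0.560 ± 0.318), *Greb1* (0.299 ± 0.0525) and *Tnfsf11* (0.154 ± 0.0532), and only *Calca* and *Greb1* overlapped as neighbours. RANK was thus the most abundant of the 7 transcripts per length in MaSC/basal cells and the last but one in ML cells, while its ligand was last in MaSC/basal cells and directly below *Esr1* in the ML means, although in ML replicate 1 it was the lowest of the 7 at 0.342 RPKM.

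**Figure D3:**
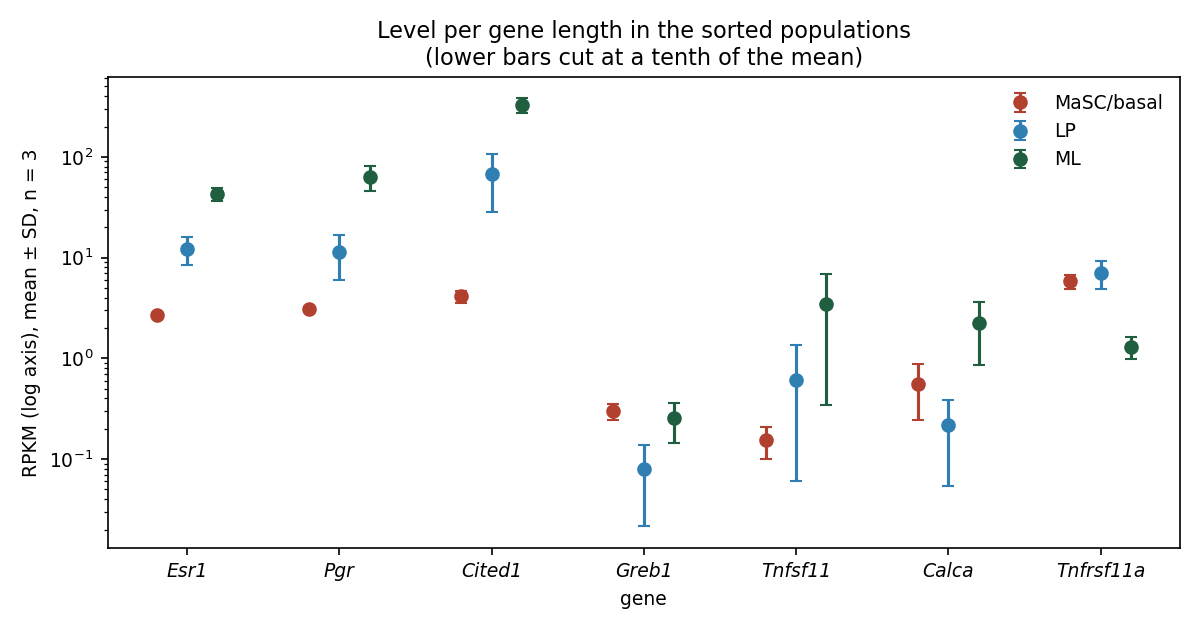
Mean RPKM ± SD (log axis, n = 3 libraries) of the 7 genes in MaSC/basal, LP and ML cells, with lower error bars cut at 10% of the mean. *Cited1* is the highest gene in ML cells at 328 RPKM and *Greb1* the lowest at 0.253, and *Tnfrsf11a* falls from 5.84 in MaSC/basal to 1.31 in ML cells.

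The cultured cells had 1 library each, so their values carry no test. In the mammosphere library, 5 of the 7 genes lay more than 2-fold below the MaSC/basal mean. Of all tested genes, 39.7% differed from it by more than 2-fold in one direction or the other. The shares of all genes more than 2-fold below the mean, or below every MaSC/basal library, were not counted. The 5 genes, or a position below that range, can therefore not be set apart from other genes. The range was narrow, and *Esr1* in Comma Dβ lay outside it at a log2 difference of 0.0896 from the mean. *Esr1* was at 2.75 CPM, *Pgr* at 7.06, *Tnfrsf11a* at 9.63, *Cited1* at 0.744 and *Greb1* at 1.51. On the log2 scale with a prior count of 2 reads the differences from the MaSC/basal mean were -2.05, -1.58, -1.59, -2.35 and -0.68. *Tnfsf11* and *Calca* were represented by 7 and 5 reads (0.158 and 0.113 CPM). The MaSC/basal means of *Esr1*, *Pgr* and *Tnfrsf11a* were 11.6, 21.3 and 29.3 CPM.

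The Comma Dβ library differed from MaSC/basal cells by more than 2-fold for 5 of the 7 genes, and 41.7% of all tested genes did so. The number was 4 without scaling beyond library size and 6 with DESeq2 size factors. *Greb1* was at 13.6 CPM, the highest level of this gene in the 11 libraries and 2.46 above the MaSC/basal mean on the log2 scale. *Esr1* was at 12.3 CPM, close to the MaSC/basal libraries, *Pgr* was lower at 10.8 CPM and *Cited1* at 0.919 CPM. *Tnfrsf11a* was at 0.715 CPM, 5.26 below the MaSC/basal mean on the log2 scale, and *Tnfsf11* had 4 reads. *Calca* had 0 reads, which allows up to 0.102 CPM and makes it at least 8.17-fold lower than the MaSC/basal mean of 0.834 CPM. Fibroblast marker sums were 1881 CPM in mammosphere and 2386 in Comma Dβ cells, against 423 to 559 in MaSC/basal cells, while the basal marker sums were 3460 and 1513, and their part in these values was not tested.

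Further genes of the hormone response were drawn from 7 lists, of which 80 genes were tested. In all, 56 were called between MaSC/basal and LP cells (36 higher and 20 lower in LP), 53 comparing ML with MaSC/basal cells (32 higher and 21 lower in ML) and 35 between LP and ML cells (16 higher and 19 lower in ML). Over all tested genes the shares called were 57.4%, 58.7% and 31.8%. The median log2 difference of the 80 genes was 0.46, 0.25 and -0.15 in these comparisons, and that of all genes 0.0079, 0.0058 and 0.014. Between LP and ML cells the calls of these lists thus went in both directions, as they did among the 7 genes.

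Of 11 other steroid and pituitary hormone receptors tested, 3 were higher and 2 lower in ML than in LP cells, where 17.5% of all tested genes were higher and 14.3% lower. The prolactin receptor gene *Prlr*, whose product acts with *Pgr* in alveolar development, was at 21.6 ± 1.88 CPM in MaSC/basal cells, 862 ± 385 in LP and 3969 ± 1013 in ML libraries (SD, n = 3), a log2 difference of ML from LP of 2.20 ± 0.33 (adjusted p = 0.00158). The orphan receptor *Esrrb* also rose (log2 3.25 ± 0.44, adjusted p = 0.00109). The glucocorticoid receptor gene *Nr3c1* was lower in ML than in LP cells (log2 -1.19 ± 0.14, adjusted p = 0.000827), the direction of *Tnfrsf11a*.

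Of 16 receptor cofactors and pioneer factors, 2 were higher and 3 lower in ML than in LP cells, a share close to the 31.8% of all genes. *Foxa1*, which opens chromatin for the estrogen receptor, was at 4.91 ± 0.885 CPM in MaSC/basal cells, 91.4 ± 26.5 in LP and 317 ± 79.7 in ML libraries (SD, n = 3; ML minus LP log2 1.79 ± 0.25, adjusted p = 0.00112), the same order as *Esr1*. *Tbx3*, a T-box factor needed for mammary development, rose by 2.38 ± 0.26 (adjusted p = 0.000800). *Cited2*, the paralog of *Cited1*, went the other way (log2 -1.68 ± 0.30, adjusted p = 0.00298), as did *Tfap2c* (log2 -1.45 ± 0.27, adjusted p = 0.00402).

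Among 13 estrogen response genes tested, 5 were higher and 3 lower in ML than in LP cells, and 6 were higher and 4 lower in ML than in MaSC/basal cells. The shares of all genes called in these comparisons were 31.8% and 58.7%. *Areg*, encoding the EGF receptor ligand amphiregulin, was at 26.3 ± 2.91 CPM in MaSC/basal cells, 319 ± 149 in LP and 1354 ± 192 in ML libraries (SD, n = 3; ML minus LP log2 2.09 ± 0.33, adjusted p = 0.00182). *Stc2* (log2 2.70 ± 0.39, adjusted p = 0.00131) and *Myb* (log2 2.06 ± 0.28, adjusted p = 0.00111) also rose, whereas the survival gene *Bcl2* was lower in ML than in LP cells (log2 -2.38 ± 0.38, adjusted p = 0.00198). The chemokine gene *Cxcl12* was lower in ML than in MaSC/basal cells (log2 -4.25 ± 0.38, adjusted p = 6.88e-06). Like *Greb1*, these last 2 genes did not have the order of *Esr1*.

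Of 11 progesterone response and paracrine genes tested, 3 were higher and 4 lower in ML than in LP cells, against 17.5% and 14.3% of all genes. *Wnt4*, a secreted Wnt ligand induced by progesterone, was at 5.94 ± 0.457, 36.1 ± 17.8 and 221 ± 12.9 CPM in the same 3 populations (SD, n = 3; ML minus LP log2 2.61 ± 0.34, adjusted p = 0.000963), in the order of *Pgr*. *Fgfr2*, a fibroblast growth factor receptor gene, was also higher in ML than in LP cells (log2 2.04 ± 0.30, adjusted p = 0.00145). *Elf5*, the alveolar transcription factor, was lower in ML than in LP cells (log2 -2.04 ± 0.26, adjusted p = 0.000945) but higher in ML than in MaSC/basal cells (log2 4.18 ± 0.29, adjusted p = 1.49e-06). *Adamts18*, a secreted protease gene, was at 284 ± 5.29 CPM in MaSC/basal cells and fell to 0.755 ± 0.497 in ML cells (SD, n = 3; log2 -8.39 ± 0.70, adjusted p = 4.61e-06).

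**Figure D4:**
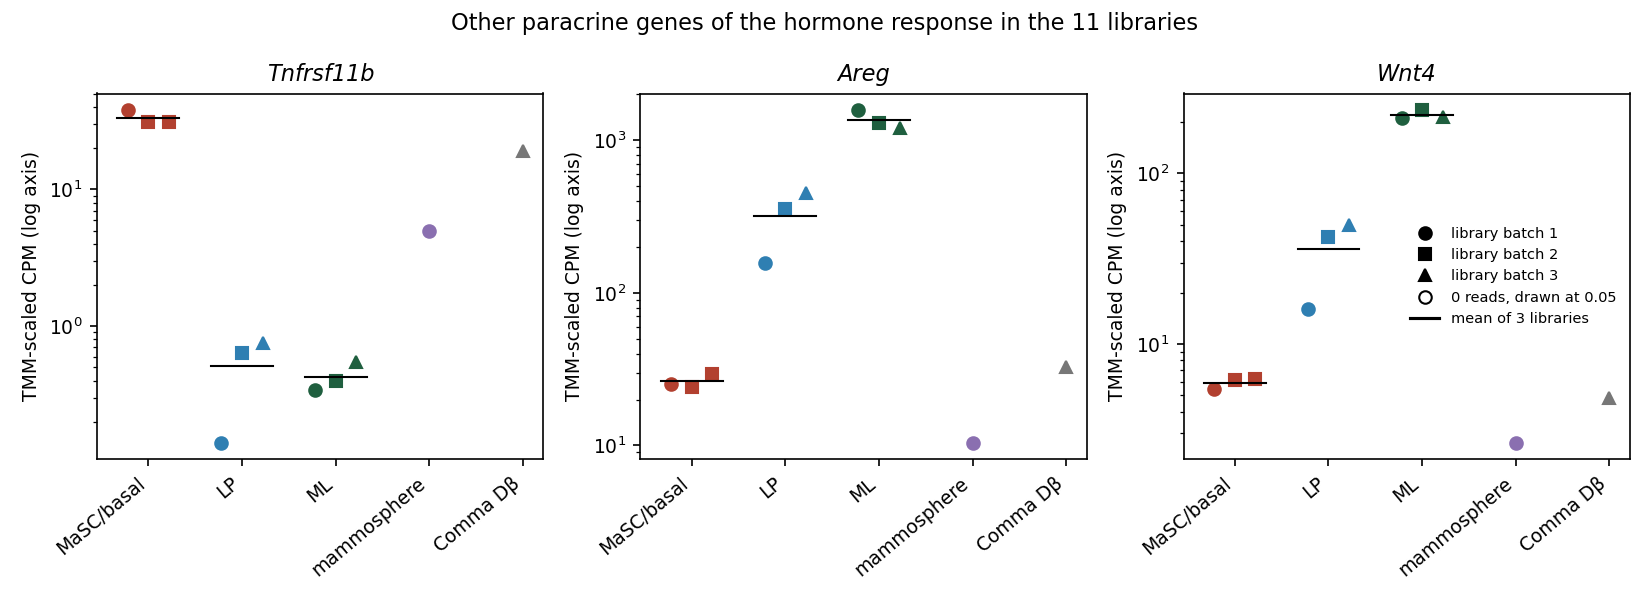
TMM-scaled CPM (log axis, its range set for each gene) of *Tnfrsf11b*, *Areg* and *Wnt4* in each of the 11 libraries, with marker shape for the library batch and a line at the mean of 3 libraries. *Areg* and *Wnt4* rise from MaSC/basal to LP to ML cells, and *Tnfrsf11b* lies above 31 CPM in MaSC/basal cells and below 1 CPM in LP and ML cells.

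The third component of the RANK axis, *Tnfrsf11b*, encodes osteoprotegerin, the decoy receptor that binds RANK ligand. It measured 37.9, 31.1 and 31.2 CPM in MaSC/basal, 0.141, 0.636 and 0.748 in LP and 0.339, 0.399 and 0.547 in ML cells. MaSC/basal libraries lay far above the others, and LP and ML libraries overlapped. Its log2 difference of ML from MaSC/basal cells was -6.32 ± 0.42 (adjusted p = 1.05e-06). Among the sorted cells the decoy receptor was thus highest in MaSC/basal cells, RANK was higher in MaSC/basal and LP than in ML cells, and RANK ligand had its highest mean in ML cells. Of the 15 RANK signalling genes, *Tnfrsf11b* included, 9 were higher and 4 lower in LP than in MaSC/basal cells (28.0% and 29.4% of all genes). Comparing ML with MaSC/basal cells, 5 were higher and 3 lower in ML (29.7% and 28.9%), and 2 were higher and 4 lower in ML than in LP cells (17.5% and 14.3%). *Nfkb2* (log2 -0.84 ± 0.24, adjusted p = 0.0257), *Rela* (log2 -0.67 ± 0.20, adjusted p = 0.0301) and *Traf6* (log2 -0.61 ± 0.18, adjusted p = 0.0244) of the NF-κB branch were lower in ML than in LP cells, while *Ikbkg* was higher (log2 0.81 ± 0.15, adjusted p = 0.00317). *Tnfrsf11a* was also lower in ML than in LP cells but, unlike it, these lower genes had their lowest means in MaSC/basal cells. Those means were 233, 265 and 44.5 CPM for *Nfkb2*, *Rela* and *Traf6*, against 298, 334 and 81.8 in ML cells.

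Of 6 genes tested of the list of calcitonin and CGRP receptors, which also holds the peptide gene *Adm*, none was called higher in ML cells, and 4 were lower than in MaSC/basal (28.9% of all genes) and 2 lower than in LP cells (14.3%). *Ramp1*, a partner of the CGRP receptor, was lower in ML than in LP cells (log2 -1.85 ± 0.27, adjusted p = 0.00137), as was *Calcrl*, which encodes the receptor itself (log2 -1.14 ± 0.28, adjusted p = 0.0125). *Calcr* and *Calcb*, the calcitonin receptor gene and the paralog of *Calca*, did not pass the filter on low counts. Of 8 steroid metabolism genes tested, 1 was higher and 1 lower in ML than in LP cells, against 17.5% and 14.3% of all genes. These were *Hsd17b4* (log2 0.95 ± 0.13, adjusted p = 0.00109) and *Hsd11b1* (log2 -1.94 ± 0.43, adjusted p = 0.00865).

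**Figure D5:**
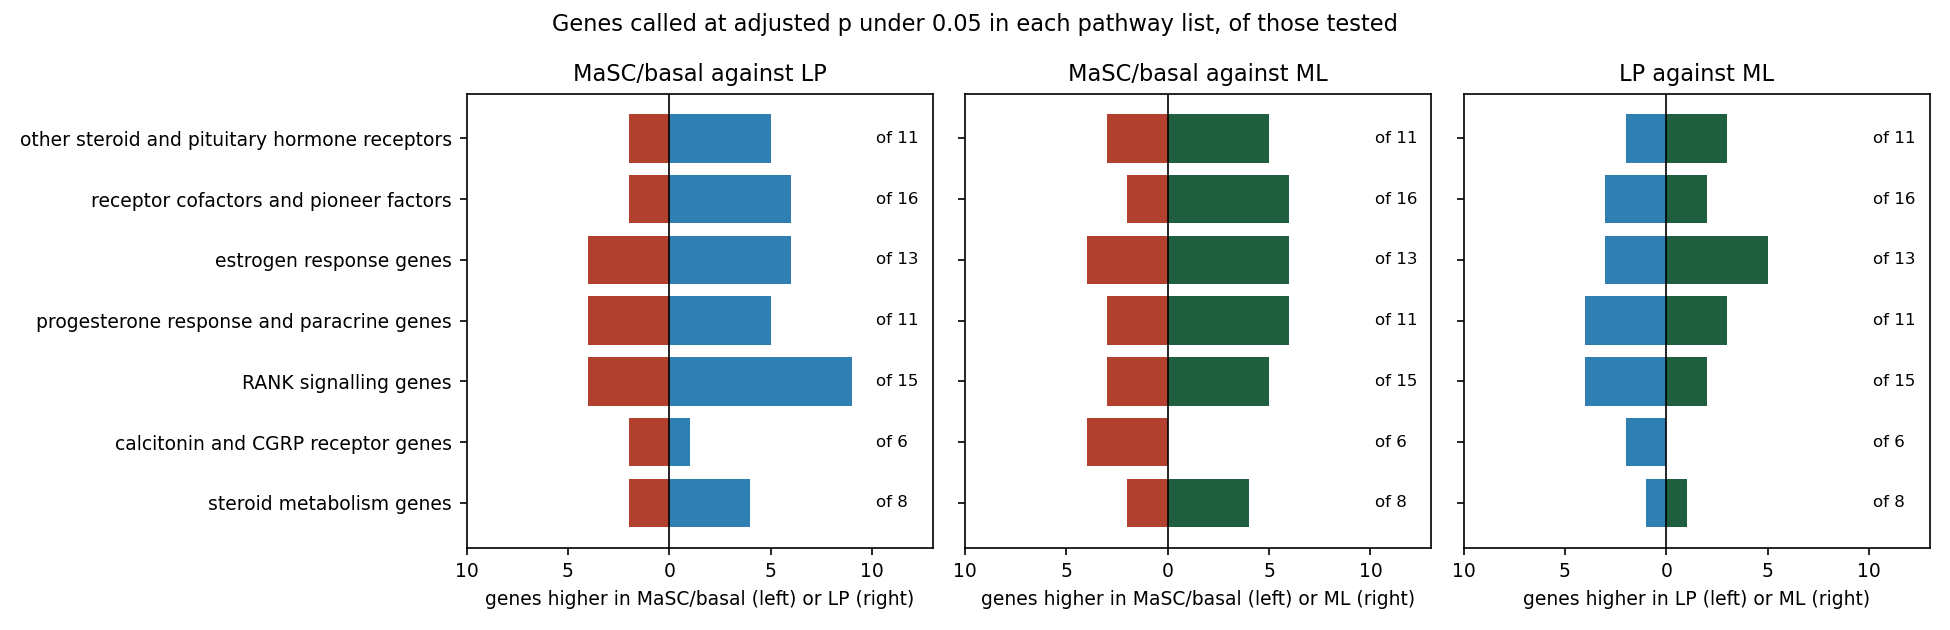
Number of genes of each pathway list called higher in one or the other population at an adjusted p under 0.05, for the 3 comparisons of sorted cells, with the number tested at the right. Calls lie on both sides of 0 in every list between LP and ML cells except for the calcitonin and CGRP receptor genes, with 2 of 6 lower in ML.

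The genes most like each of the 7 were found by Pearson's r of log2 CPM across the 9 sorted libraries, which share population and batch, so that r describes the pattern only. *Kcns3*, *Tbx3os2* and *Ly6a* were most like *Esr1*, *Dipk1a*, *Nek7* and *Plk5* most like *Pgr*, and *Tlcd4*, *Cxcl15* and *Naip5* most like *Cited1*, with r from 0.997 to 0.999. *Mef2a*, *B3galt1* and *Nr3c1* were most like *Tnfrsf11a* (r from 0.976 to 0.983), and *Romo1*, *Ptgr1* and *Glrx2* most like *Calca* (r from 0.975 to 0.987). The likeness was weaker for *Greb1* with *Uqcc2*, *Prelid3b* and *Tstd3* (r from 0.944 to 0.947) and for *Tnfsf11* with *1110059G10Rik*, *Hif3a* and *Setdb2* (r from 0.931 to 0.946).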

How the data were processed

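Raw counts per Entrez gene were deposited, one table per library, which the authors made with Rsubread (alignment of single-end reads to mm10) and featureCounts and neither normalized nor filtered. TruSeq RNA libraries do not mark strand. Symbols, coordinates and the windows before start sites came from RefSeq tables of GRCm38, and no other RefSeq gene overlaps the 7 genes.

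The count tests used edgeR 4.0.16 (R 4.3.3). Genes over 0.5 CPM in at least 3 libraries (15422) were kept, scaled by TMM and fitted with a quasi-likelihood model of 5 group means over all 11 libraries. P-values were adjusted over all tested genes, with a threshold of 0.05. The SE is the size of the log2 fold change divided by the square root of F. RPKM used the exon lengths in the files. The 7 genes and all lists were chosen with earlier results of these data known. Named pathway genes were those called in LP against ML or MaSC/basal against ML with the largest fold changes, up to 4 per list and comparison, and 3 genes of most similar pattern per member. *Tnfrsf11b*, *Calcr*, *Calcb* and *Itgb3* are also described, and 1 named gene is not reported here.

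The batch labels pair the libraries. LP and ML libraries of the same batch deviated together from their group means (r of 0.313 to 0.526 in 3 pairs), whereas pairs with MaSC/basal libraries were less regular (all 9 same-batch pairs -0.118 to 0.526). On simulated counts of 15422 genes in which 200 genes differed by 2 on the log2 scale, edgeR found 96% for MaSC/basal against ML with 8 false calls and 94% for LP against ML with 12. The simulated libraries were independent of each other, and only these 200 genes differed, in ML cells alone. Real libraries are paired by batch and far more genes differ, so these rates do not describe the test on the real data. Alternatives were DESeq2 size factors, no TMM scaling, other filters, DESeq2 1.42.0, limma voom (limma 3.58.1), a batch block, the 9 sorted libraries alone and leaving out each replicate, and, for the cultured libraries, other scaling and a prior count of 0.5 in place of 2. Depth was 19958838 to 75795034 counts per library, and 3 reads, the upper limit that a count of 0 allows, equal 0.0399 to 0.160 CPM. Floors cover counting error only.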

Additional observations from a re-analysis of the deposited data

How the results depend on the processing

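No direction among the 7 genes reversed in any of the 17 alternatives, and *Esr1*, *Pgr* and *Cited1* kept their call in all 3 comparisons. Within batches 1 and 2, however, some differences that were not called had opposite signs. LP minus MaSC/basal was log2 -3.27 and 1.46 for *Tnfsf11*, the first with 0 LP reads, and 0.81 and -0.40 for *Tnfrsf11a*. ML minus MaSC/basal was 0.10 and -0.44 for *Greb1*. The number of the 7 genes called was 4 to 5 between MaSC/basal and LP, 5 to 6 between MaSC/basal and ML and 5 to 6 between LP and ML cells, and of pathway genes 52 to 58, 49 to 57 and 26 to 42. *Greb1* between LP and ML cells lost its call in 11 of the 17, including DESeq2 size factors (adjusted p = 0.0513), a filter of over 1 CPM (0.0501) and the 9 sorted libraries alone (0.0509). With library batch as a replicate block, 5 of the 7 genes were called between MaSC/basal and LP cells, where *Calca* was gained, 6 between MaSC/basal and ML and 6 between LP and ML cells, where *Tnfsf11* was gained and *Greb1* lost, and no other call of the 7 genes changed.

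Without scaling beyond library size, the median log2 fold change of all genes was -0.14 for LP minus MaSC/basal and 0.19 for ML minus LP. The split of calls moved to 3525 higher and 5244 lower in LP than in MaSC/basal cells, against 4324 and 4529, and to 3798 higher and 1581 lower in ML than in LP cells, against 2695 and 2204. No call of the 7 genes changed with it. Leaving out ML replicate 1 lowered all calls between LP and ML cells to 1749 higher and 1334 lower. For the cultured libraries, the number of the 7 genes over 2-fold from the MaSC/basal mean was 5 to 6 in mammosphere and 4 to 6 in Comma Dβ cells under DESeq2 size factors, no scaling and a prior count of 0.5. Depth limits *Tnfsf11* and *Calca* in LP and cultured cells, where 0 to 60 reads were counted. It also limits *Tnfsf11* in MaSC/basal cells (11 to 24 reads) and ML replicate 1 (27 reads), and *Greb1* in LP cells (4 to 59 reads).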
